A study of Mus musculus with 18 samples.

Results

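The genes described here are those of MHC class I antigen presentation and of the processing of its peptides, 44 of the 23337 genes in the count table. They were chosen by symbol. The 32 genes with an H2- symbol came from the K, D1, Q, T, M and Bl series of the mouse MHC, and the other 12 were B2m, Nlrc5, Psmb8, Psmb9, Psmb10, Psme1, Psme2, Tap1, Tap2, Tapbp, Tapbpl and Erap1. Of the H2 genes, 30 were named as class I heavy chains, while H2-Ke2 and H2-Ke6 match the K series by symbol alone and encode a prefoldin subunit and a hydroxysteroid dehydrogenase.

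Class I molecules show peptides from the inside of the cell to CD8 T cells, and they are carried by nearly all nucleated cells. Proteasomes cut cytosolic proteins, the TAP transporter moves the fragments into the endoplasmic reticulum (ER), and tapasin helps to load them onto a heavy chain paired with beta-2 microglobulin before the complex travels to the surface. Interferons raise the transcription of most of these genes, and in the inflamed glands of Sjögren's disease both epithelial cells and infiltrating leukocytes can carry class I.

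Gene counts came from RNA-seq of exorbital lacrimal glands (LGs) of male NOR mice, a strain that develops autoimmune dacryoadenitis, and of male BALB/c controls. The genotype labels gave NOR/LtJ and BALB/c, and the titles of the NOR samples called them NOD. There were 6 groups of 3 libraries each: NOR LGs of 3, 8 and 16 weeks of age and BALB/c LGs of 3, 8 and 16 weeks, ages that stood for the stages before disease, at its onset and of advanced disease. Each 3-week library came from 1 mouse, while libraries of 8 and 16 weeks were pooled from 2 to 3 mice, so that age and pooling changed together.

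Total counts in BALB/c libraries 1, 2 and 3 were 20347504, 13261982 and 18217485 at 3 weeks, 14460004, 14813662 and 19548196 at 8 weeks and 20493076, 12692650 and 19023500 at 16 weeks. For NOR they were 17176276, 11420477 and 6378613 at 3 weeks, 15510762, 14894378 and 17475740 at 8 weeks and 13638923, 17719984 and 7322307 at 16 weeks. The shallowest were NOR library 3 of 3 weeks and NOR library 3 of 16 weeks. Levels are given in CPM, counts scaled to the usual common library size after TMM normalization, always in the order of libraries 1, 2 and 3. On this scale 3 counts, the floor used here, were worth 0.118 to 0.527 CPM in a library. Floors cover counting error only.

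The labels were checked on markers before the comparisons. The acinar markers Bhlha15 and Aqp5 summed to 1483, 1526 and 1537 CPM at 3 weeks, 1392, 1414 and 1575 CPM at 8 weeks and 1343, 1242 and 1176 CPM at 16 weeks in BALB/c, and to 1327, 1251 and 1164 CPM at 3 weeks, 829, 849 and 947 CPM at 8 weeks and 951, 583 and 781 CPM at 16 weeks in NOR, so that both were plain in every library. Another acinar marker, Lacrt, was not matched in the table. Whether Bhlha15 and Aqp5 tell acini of the LG from those of other glands was not tested. H2-Ea-ps, the class II E alpha gene that BALB/c mice express and the NOR haplotype does not, had 86 to 819 counts in the BALB/c libraries and 0 to 4 in the NOR libraries.

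Some libraries stood apart by markers of the parotid gland (Amy1, Bpifa2, Prol1, Cldn10 and Dcpp1, of which Bpifa2 was the most abundant and none was at or below 3 counts throughout). These summed to 119, 12039 and 116 CPM at 3 weeks, 1765, 579 and 195 CPM at 8 weeks and 150.2, 6333 and 436 CPM at 16 weeks in BALB/c. In NOR they summed to 189, 54842 and 55263 CPM at 3 weeks, 3117, 14848 and 2183 CPM at 8 weeks and 157, 4080.3 and 116 CPM at 16 weeks. The excess lay in Amy1, Bpifa2 and Dcpp1. Prol1 did not follow it in BALB/c, with 1, 2 and 0 counts at 3 weeks and 139, 236 and 265 at 8 weeks. In NOR at 3 weeks Prol1 had 2, 32 and 25 counts, and was thus higher in libraries 2 and 3, which had the excess. Cldn10 was at 85.9 to 129.8 CPM over the 18 libraries. The sum exceeded 10 times the median of the 18 libraries in BALB/c library 2 of 3 weeks, NOR libraries 2 and 3 of 3 weeks and NOR library 2 of 8 weeks, and these 4 are called parotid-rich below. As NOR at 3 weeks had a single library without this excess, the numbers of members called higher are also given without the 4 libraries, in a fit where that lone sample is assumed to vary like the other groups.

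The strains carry different MHC haplotypes. NOR and BALB/c have the same K allele, which is not that of the C57BL/6 genome used for mapping, while NOR has the D allele of C57BL/6, and BALB/c has another one together with an L gene that the reference lacks. Reads of 50 bases from differing alleles can be lost or moved to a neighbour, so a difference between the strains in an H2 heavy chain gene can hold a mapping part, whose size was not tested. A mapping difference of fixed size cancels where ages are compared within a strain, and where the strain difference at 1 age is set against that at another. B2m, Psmb10, Nlrc5, Erap1, Tapbpl, Psme1 and Psme2 lie outside the MHC, the other 37 genes on chromosome 17 between positions 33919478 and 37483529 of mm10.

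The heavy chain genes also resemble each other. Of the 50-base stretches of annotated transcripts, 50.4% in H2-T10 occurred in another gene as well, as did 36.4% in H2-Q4, 35.0% in H2-Q6, 19.1% in H2-Q10, 16.1% in H2-Q2 and 14.5% in H2-T23. Outside these, 70.5% in H2-Ke6 and 23.2% in Tapbp did. The share was 12.8% for H2-D1, 9.63% for H2-K1, and 0 for B2m and Psmb10. As reads with several places were left out of the counts, the levels of H2-Ke6, H2-T10, H2-Q4 and H2-Q6 in particular are uncertain. Psme2 shared 28.3% of its stretches with the near copy Psme2b, and the counting used no strand, so reads from opposite strands of overlapping genes could not be told apart.

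Past the low-count filter were 29 of the 44 genes, among 13376 tested in all. The 15 others were all H2 heavy chain genes. H2-Q7, H2-Q9, H2-T9, H2-M1, H2-M10.1, H2-M10.3, H2-M10.4, H2-M10.5 and H2-M10.6 had no count in any library, and the exons of H2-Q7 and H2-Q9 overlap each other over 99.0% and 100% of their bases, where reads were not counted. H2-Bl reached 22 counts in NOR library 2 of 16 weeks, H2-T22 reached 6 counts, and H2-M5, H2-M9, H2-M10.2 and H2-M11 never exceeded 3. H2-T22 had 6, 1 and 5 counts in BALB/c at 16 weeks and 0 in each of the 9 NOR libraries, and 93.2% of its exon bases overlap H2-T9.

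Summed over the members other than H2-Ke2 and H2-Ke6, expression was 269, 331 and 243 CPM at 3 weeks, 557, 524 and 518 CPM at 8 weeks and 522, 512 and 639.8 CPM at 16 weeks in BALB/c. The corresponding NOR sums were 259, 494 and 459 CPM at 3 weeks, 1292, 1008 and 739 CPM at 8 weeks and 1304, 2564 and 1874 CPM at 16 weeks. Every NOR library of 8 and 16 weeks thus lay above every BALB/c library of any age, while at 3 weeks the strains overlapped, with NOR library 1 within the BALB/c range and NOR libraries 2 and 3, both parotid-rich, above it. In bulk tissue, more cells of a type and more RNA per cell cannot be told apart, and this holds for each difference described here.

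A gene was called at a Benjamini-Hochberg adjusted p of at most 0.05 in edgeR's quasi-likelihood test and a log2 fold change of at least 1 in size. At 3 weeks, 5 of the 29 tested members (H2-Q6, H2-T10, H2-T3, H2-M3 and Nlrc5) were called higher in NOR, beside 3.54% of all tested genes, and 3 (H2-Q8, H2-Q10 and H2-T23) were called lower, beside 1.71%. At the adjusted p alone, 6 were higher, beside 7.95% of all genes, the added gene being H2-D1, and the same 3 were lower, beside 7.01%. The number higher rested on single libraries. It was 8 without NOR library 1, 1 without NOR library 2, 2 without NOR library 3, and 2, 4 and 2 without BALB/c library 1, 2 or 3. Without the parotid-rich libraries it was 1 (H2-T10), beside 1.84% of the 14148 genes then tested. H2-Q8 lost its call without NOR library 1 and without the parotid-rich libraries, which left 2 lower each time. The part of parotid tissue in these results was not tested.

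At 8 weeks, 17 of the 29 tested members were called higher in NOR, beside 8.93% of all genes, and the 3 lower at 3 weeks were again called lower, beside 2.65%. The adjusted p alone gave 22 higher, beside 16.4% of all genes, and 4 lower, beside 11.4%, the added gene being H2-Ke6. By 16 weeks, 21 were called higher, beside 14.1%, and the same 3 lower, beside 5.22%, with 23 higher and 3 lower at the adjusted p alone, beside 25.5% and 25.4%. Without the parotid-rich libraries, 20 members were called higher at 8 weeks, beside 8.04% of the genes, and 22 at 16 weeks, beside 15.3%, out of 30 then tested. The added member, H2-Bl, counted among both numbers on few reads, with 0, 0 and 0 counts in BALB/c at 8 weeks and 5 and 3 in the NOR libraries left, and 6, 2 and 5 against 4, 22 and 9 at 16 weeks, so its calls carry little weight. H2-Q8 lost its call at 16 weeks without BALB/c library 3, which left 2 lower. The 3 strain comparisons share no library. As the filter kept genes that are high in any group, these counts describe the tested members and not the 44.

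**Figure D1:**
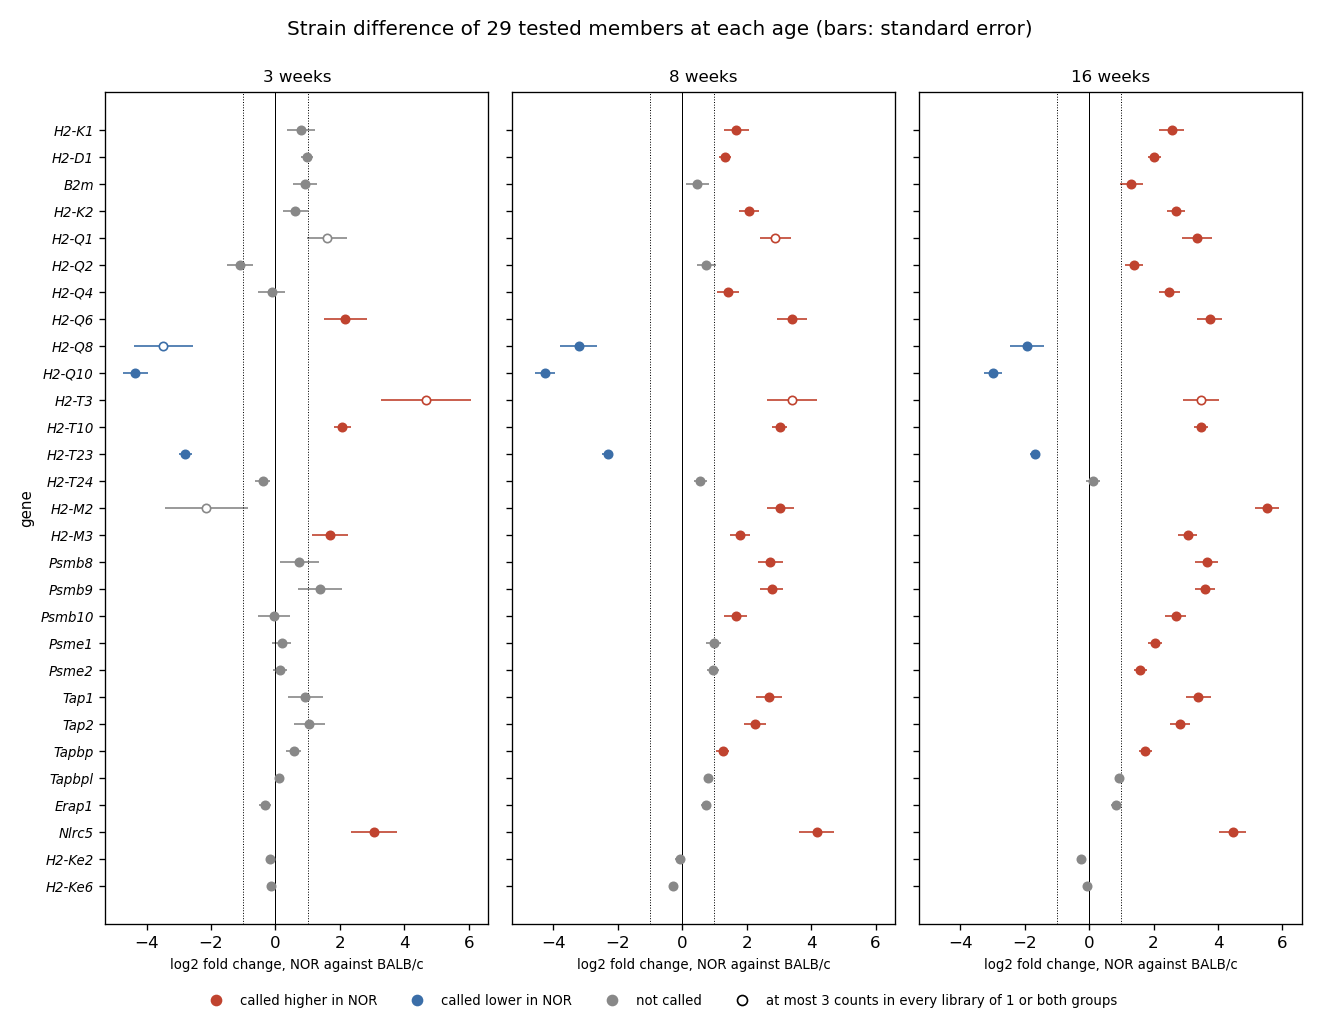
Log2 fold change of NOR against BALB/c LGs (x axis) for each of the 29 tested genes (y axis) at 3, 8 and 16 weeks, with standard errors as bars. Red points were called higher in NOR (5, 17 and 21 genes), blue points lower (3 at each age), grey points were not called, and open points mark genes with at most 3 counts in every library of 1 or both groups, whose plotted values are no measure of size.

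The heavy chains of the classical class I molecules, which present peptides to most CD8 T cells, were counted under H2-K1 and H2-D1. H2-K1 was at 17.8, 22.4 and 15.004 CPM at 3 weeks, 34.1, 26.7 and 26.1 CPM at 8 weeks and 30.7, 28.5 and 45.8 CPM at 16 weeks in BALB/c. In NOR it was at 8.21, 44.1 and 47.3 CPM at 3 weeks, 121, 93.9 and 62.8 CPM at 8 weeks and 131, 275 and 215 CPM at 16 weeks. The NOR libraries of 8 and 16 weeks lay above all BALB/c libraries, whereas at 3 weeks NOR library 1 was the lowest of the 18 and NOR libraries 2 and 3, parotid-rich both, were above BALB/c. The log2 difference between the strains was 0.80 ± 0.43 (SE) at 3 weeks, with an adjusted p of 0.248 in edgeR's quasi-likelihood F-test (Benjamini-Hochberg). It rose to 1.68 ± 0.40 at 8 weeks and 2.56 ± 0.40 at 16 weeks, with adjusted p of 0.00347 and 3.13e-05 in the same edgeR quasi-likelihood test (Benjamini-Hochberg). Without NOR library 1 the difference at 3 weeks was 1.31 and was called, and without the parotid-rich libraries it was -1.01 and was not called.

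H2-D1 was at 74.9, 80.1 and 68.8 CPM at 3 weeks, 110.3, 102 and 104 CPM at 8 weeks and 104, 101 and 136 CPM at 16 weeks in BALB/c. NOR LGs had 112, 168 and 159 CPM at 3 weeks, 322, 263 and 209.6 CPM at 8 weeks and 339, 588 and 461 CPM at 16 weeks. The strains did not overlap at any age, and NOR library 2 of 16 weeks was the highest of all. At 3 weeks the log2 difference, 0.97 ± 0.19, passed on p (adjusted p 0.00138, edgeR quasi-likelihood F-test, Benjamini-Hochberg) but was short of the fold cutoff, and it crossed that cutoff without NOR library 1 (1.13) or without BALB/c library 2 (1.02). H2-D1 without the parotid-rich libraries differed by 0.63 at 3 weeks, which did not pass. It was 1.32 ± 0.19 at 8 weeks and 2.03 ± 0.19 at 16 weeks, and both were called. H2-K2, another gene of the K region, reached 16.9, 31.9 and 26.9 CPM in NOR and 3.33, 2.44 and 5.57 CPM in BALB/c at 16 weeks, without overlap, and was called at 8 and 16 weeks with log2 differences of 2.06 ± 0.31 and 2.71 ± 0.28.

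B2m, the light chain without which no class I molecule is stable at the surface, was at 45.4, 82.9 and 43.2 CPM at 3 weeks, 238, 250.1 and 233 CPM at 8 weeks and 221, 239 and 236 CPM at 16 weeks in BALB/c. NOR had 42.1, 153 and 128 CPM at 3 weeks, 425, 363 and 204 CPM at 8 weeks and 376, 799 and 546 CPM at 16 weeks. In BALB/c the main step was between 3 and 8 weeks, across which the libraries did not overlap, and the strains overlapped at 3 and at 8 weeks and were apart at 16 weeks. The log2 strain difference was 0.91 ± 0.37, 0.46 ± 0.36 and 1.31 ± 0.36 at 3, 8 and 16 weeks, called at 16 weeks only (adjusted p 0.00542, edgeR quasi-likelihood F-test, Benjamini-Hochberg). The 3-week value became 1.30 and was called without NOR library 1, likewise 1.27 without BALB/c library 2, and it fell to -0.09 without the parotid-rich libraries. Per kb of exon, mean expression at 16 weeks in NOR was 669 CPM for B2m, 266 CPM for H2-D1 and 126 CPM for H2-K1. These 3 were the most abundant members per kb in NOR at that age. In BALB/c the same order held at 271, 65.4 and 21.3 CPM per kb, but H2-T23 (28.3 CPM per kb) came before H2-K1.

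**Figure D2:**
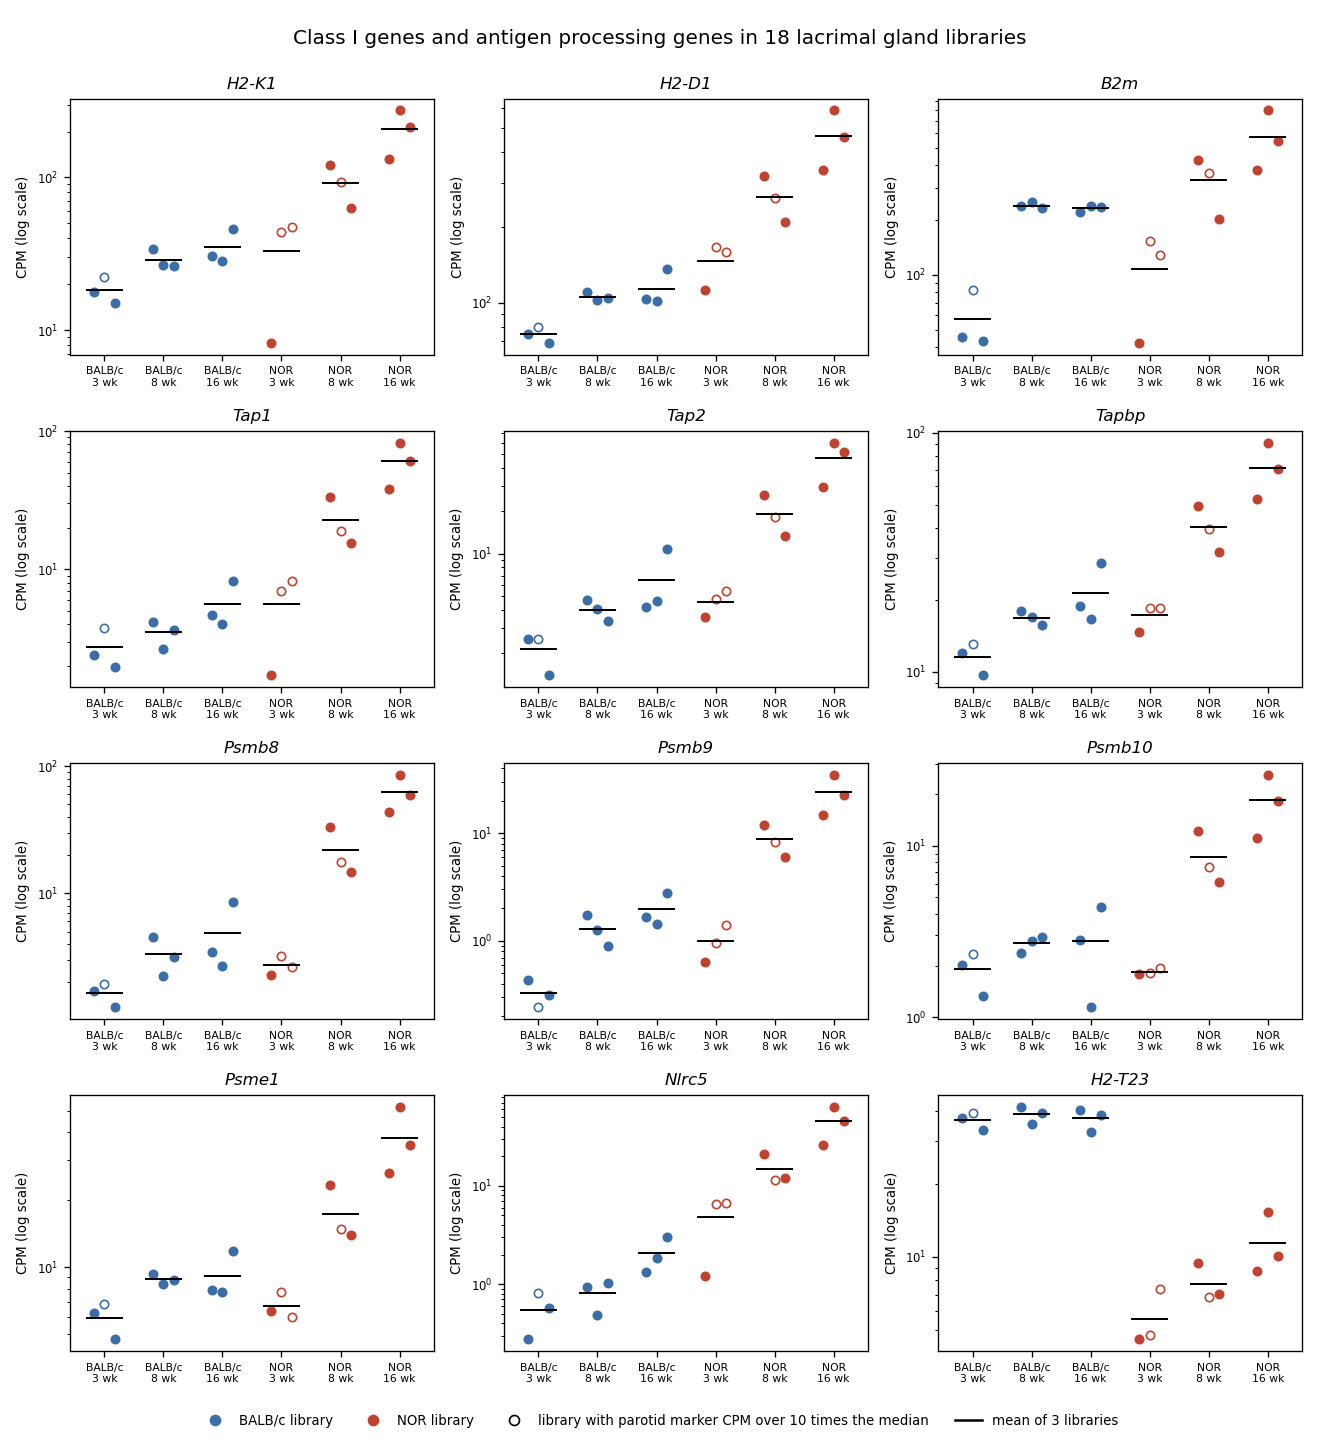
CPM on a log axis for 12 of the genes in each of the 18 libraries, grouped by strain and age (blue BALB/c, red NOR), with a bar at the mean of 3 libraries and open circles for the parotid-rich libraries. NOR libraries of 16 weeks lie above the BALB/c libraries of that age in 11 panels, and below them in the panel of H2-T23.

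Nlrc5, the transactivator that sits on class I promoters and drives their transcription, was at 0.274, 0.807 and 0.5698 CPM at 3 weeks, 0.944, 0.489 and 1.02 CPM at 8 weeks and 1.33, 1.83 and 3.03 CPM at 16 weeks in BALB/c. In NOR LGs it reached 1.21, 6.56 and 6.68 CPM at 3 weeks, 21.1, 11.6 and 12.2 CPM at 8 weeks and 26.3, 63.96 and 46.1 CPM at 16 weeks. The strains did not overlap at any age, but in counts the 3-week libraries held only 5, 10 and 9 in BALB/c and 17, 69 and 38 in NOR, with the parotid-rich libraries 2 and 3 far above library 1. The log2 difference was 3.04 ± 0.71 at 3 weeks, 4.17 ± 0.53 at 8 weeks and 4.45 ± 0.42 at 16 weeks, with adjusted p of 0.00587, 9.15e-06 and 1.06e-07 in edgeR's quasi-likelihood F-test (Benjamini-Hochberg). The call at 3 weeks was lost without NOR library 2 (2.54, adjusted p 0.0539, edgeR quasi-likelihood, Benjamini-Hochberg). It was also lost without the parotid-rich libraries (1.53 ± 1.08, adjusted p 0.528, same test). Nlrc5 had the largest log2 difference at 8 and 16 weeks of the 12 members that are not H2 genes.

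The RFX and NF-Y proteins and CREB1 form the complex that Nlrc5 joins on the promoter. Of their 7 genes, 0 were called higher and 0 lower at 16 weeks by edgeR, beside 14.1% and 5.22% of all tested genes. At an unadjusted p under 0.05 in edgeR, 2 were higher and 0 lower, and DESeq2 called 0. Their median log2 difference was 0.05, beside −0.01 for all tested genes, and single values ran from -0.18 for Nfyb to 0.79 for Rfxank.

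Psmb8, Psmb9 and Psmb10 encode the inducible catalytic subunits that turn a proteasome into an immunoproteasome, which cuts peptides better suited to class I. Psmb8 was at 1.697, 1.94 and 1.27 CPM at 3 weeks, 4.56, 2.24 and 3.16 CPM at 8 weeks and 3.42, 2.66 and 8.504 CPM at 16 weeks in BALB/c. NOR LGs held it at 2.29, 3.23 and 2.64 CPM at 3 weeks, 33.1, 17.5 and 14.6 CPM at 8 weeks and 43.2, 85.8 and 59.1 CPM at 16 weeks. All NOR libraries of 8 and 16 weeks were above all BALB/c libraries, and at 3 weeks NOR lay above BALB/c by little. Its log2 difference was 0.73 ± 0.60 at 3 weeks and not called, 2.73 ± 0.39 at 8 weeks and 3.65 ± 0.35 at 16 weeks, with adjusted p of 0.485, 3.26e-05 and 1.25e-07 in edgeR's quasi-likelihood F-test (Benjamini-Hochberg).

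Psmb9, the partner subunit whose gene lies head to head with Tap1, was at 0.438, 0.242 and 0.317 CPM at 3 weeks, 1.73, 1.26 and 0.903 CPM at 8 weeks and 1.66, 1.45 and 2.79 CPM at 16 weeks in BALB/c. NOR levels were 0.643, 0.951 and 1.41 CPM at 3 weeks, 11.8, 8.31 and 6.05 CPM at 8 weeks and 14.7, 34.8 and 22.6 CPM at 16 weeks. The strains did not overlap at any age, though the 3-week libraries held only 8, 3 and 5 counts in BALB/c and 9, 10 and 8 in NOR. The log2 difference, not called at 3 weeks (1.38 ± 0.69), was 2.78 ± 0.36 at 8 weeks and 3.59 ± 0.32 at 16 weeks, both called.

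For Psmb10, which lies outside the MHC and shares no 50-base stretch with another gene, BALB/c levels were 2.03, 2.34 and 1.33 CPM at 3 weeks, 2.36, 2.797 and 2.93 CPM at 8 weeks and 2.803, 1.14 and 4.37 CPM at 16 weeks. Those of NOR were 1.79, 1.81 and 1.93 CPM at 3 weeks, 12.2, 7.502 and 6.17 CPM at 8 weeks and 11.1, 25.96 and 18.3 CPM at 16 weeks. The strains overlapped at 3 weeks and were apart at 8 and 16 weeks, when NOR library 2 of 16 weeks was the highest and BALB/c library 2 of 16 weeks the lowest. Log2 differences were -0.04 ± 0.49, 1.67 ± 0.36 and 2.68 ± 0.34 at 3, 8 and 16 weeks, called at the later ages.

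Each inducible subunit can take the place of a constitutive one, and their counts were set in ratio within each library. A ratio in bulk RNA does not show an exchange within cells. Psmb8 amounted per kb to 9.77%, 11.3% and 6.59% of Psmb5 in BALB/c at 3 weeks, 25.98%, 13.7% and 19.8% at 8 weeks and 25.4%, 24.2% and 63.7% at 16 weeks. In NOR it amounted to 12.1%, 19.1% and 13.4% at 3 weeks, 185%, 97.97% and 75.2% at 8 weeks and 259%, 649% and 435% at 16 weeks. Psmb8 counts per kb thus exceeded those of Psmb5 in each NOR library of 16 weeks, in NOR library 1 of 8 weeks and in no BALB/c library. Psmb9 amounted to 5.34%, 4.59% and 8.43% of Psmb6 per kb in BALB/c at 16 weeks and to 51.7%, 131% and 94.4% in NOR. Psmb10 amounted to 5.503%, 1.95% and 7.899% of Psmb7 per kb in BALB/c at 16 weeks, and to 19.2%, 55.4% and 43.7% in NOR. The 2 strains were apart in both.

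On the log2 scale the ratios in NOR exceeded those in BALB/c at 16 weeks by 3.62 for Psmb8/Psmb5, 3.86 for Psmb9/Psmb6 and 3.03 for Psmb10/Psmb7. At 8 weeks the excess was 2.53, 2.95 and 1.68, and at 3 weeks 0.69, 1.69 and 0.07. The libraries of the strains did not overlap in 8 of these 9 comparisons, each with p = 0.1 in a two-sided exact permutation test, the smallest that 3 against 3 libraries allow, and with p = 0.1125 after Benjamini-Hochberg adjustment over the 9. They overlapped for Psmb10/Psmb7 at 3 weeks (exact permutation p = 1), where leaving out BALB/c library 3 turned the difference to -0.17. Of the 14 tested subunit genes of the constitutive core particle, 0 were called at 16 weeks by edgeR. Of all tested genes, 14.1% were called higher and 5.22% lower. At an unadjusted p under 0.05 in edgeR, 2 of the 14 were higher and 1 lower, and DESeq2 called 0. The 14 had a median log2 difference of 0.07, with the largest at −0.27 for Psmb6.

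**Figure D3:**
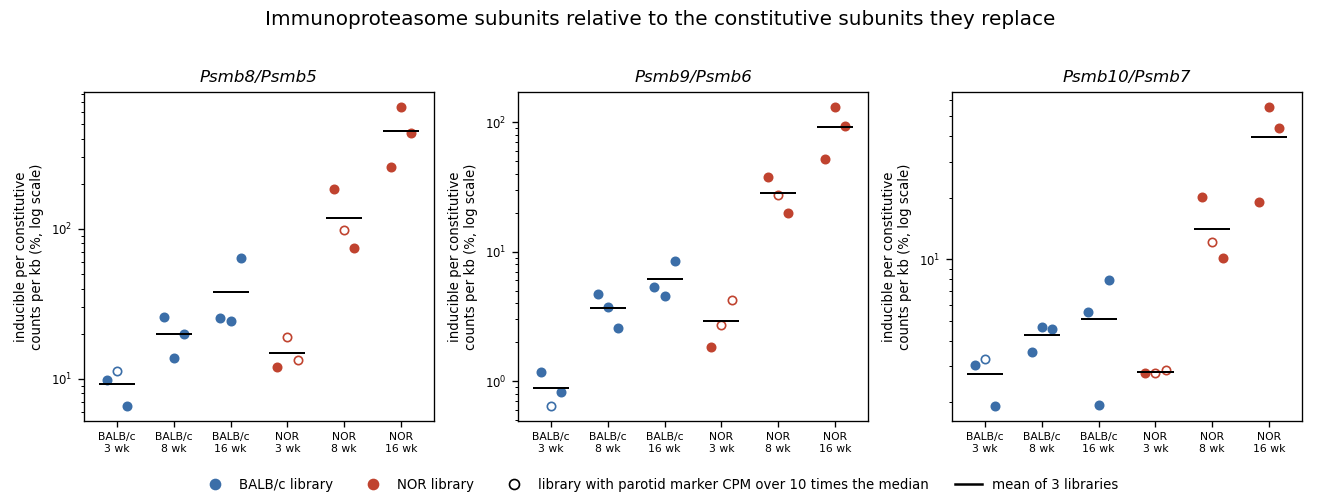
Counts per kb of Psmb8, Psmb9 and Psmb10 as a percentage of those of Psmb5, Psmb6 and Psmb7 (log axis) in each of the 18 libraries, grouped by strain and age, with a bar at the mean of 3 libraries and open circles for the parotid-rich libraries. At 16 weeks the ratio of Psmb8 to Psmb5 lies between 259% and 649% in NOR and between 24.2% and 63.7% in BALB/c.

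PA28, a cap that opens the proteasome, is built from the products of Psme1 and Psme2. Psme1 was at 6.24, 6.86 and 4.75 CPM at 3 weeks, 9.36, 8.39 and 8.75 CPM at 8 weeks and 7.89, 7.76 and 11.8 CPM at 16 weeks in BALB/c. Levels in NOR were 6.36, 7.701 and 5.98 CPM at 3 weeks, 23.2, 14.8 and 13.9 CPM at 8 weeks and 26.4, 52.1 and 35.1 CPM at 16 weeks. The strains overlapped at 3 weeks and not later, and all BALB/c libraries lay below the NOR libraries of 8 weeks. Its log2 difference was 0.97 ± 0.24 at 8 weeks, just short of the fold cutoff, and 2.05 ± 0.23 at 16 weeks (adjusted p 0.00423 and 5.90e-07, edgeR quasi-likelihood F-test, Benjamini-Hochberg).

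Psme2 was at 9.797, 11.7 and 10.8 CPM at 3 weeks, 13.3, 12.5 and 11.9 CPM at 8 weeks and 12.6, 10.2 and 16.7 CPM at 16 weeks in BALB/c. NOR had 11.1, 13.1 and 11.2 CPM at 3 weeks, 30.97, 21.3 and 20.7 CPM at 8 weeks and 31.8, 53.3 and 34.2 CPM at 16 weeks. As for Psme1, the strains were apart at 8 and 16 weeks, with log2 differences of 0.96 ± 0.20 and 1.59 ± 0.19, and the latter was called. Psme1 and Psme2 crossed the fold cutoff at 8 weeks when NOR library 2 or NOR library 3 was left out, at 1.05 and 1.11 for Psme1 and 1.02 and 1.06 for Psme2. Psme1 also did so without BALB/c library 1 (1.01).

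Tap1 and Tap2 form the transporter that carries peptides into the ER. Tap1 was at 2.41, 3.79 and 1.96 CPM at 3 weeks, 4.17, 2.66 and 3.67 CPM at 8 weeks and 4.704, 4.03 and 8.22 CPM at 16 weeks in BALB/c. NOR showed 1.71, 6.94 and 8.26 CPM at 3 weeks, 33.3, 19.04 and 15.5 CPM at 8 weeks and 38.4, 82.6 and 60.4 CPM at 16 weeks. NOR lay above every BALB/c library at 8 and 16 weeks, and at 3 weeks NOR library 1 was the lowest of all 18. Tap1 differed by 2.69 ± 0.41 (log2) at 8 weeks and 3.40 ± 0.37 at 16 weeks, with adjusted p of 6.96e-05 and 5.68e-07 in edgeR's quasi-likelihood F-test (Benjamini-Hochberg), and by 0.93 ± 0.54 at 3 weeks, not called, which turned to -0.37 without the parotid-rich libraries.

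Tap2 was at 2.52, 2.502 and 1.39 CPM at 3 weeks, 4.72, 4.06 and 3.33 CPM at 8 weeks and 4.23, 4.64 and 10.8 CPM at 16 weeks in BALB/c. Its NOR levels were 3.57, 4.75 and 5.45 CPM at 3 weeks, 25.7, 17.98 and 13.3 CPM at 8 weeks and 29.3, 60.4 and 51.7 CPM at 16 weeks. The strains were apart at each age, by least at 3 weeks. The log2 difference of 1.05 ± 0.48 at 3 weeks was not called (adjusted p 0.163, edgeR quasi-likelihood F-test, Benjamini-Hochberg), while those of 2.25 ± 0.35 at 8 weeks and 2.82 ± 0.31 at 16 weeks were.

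Tapbp, or tapasin, which bridges TAP and the empty heavy chain, was at 11.99, 13.1 and 9.69 CPM at 3 weeks, 18.01, 16.9 and 15.6 CPM at 8 weeks and 18.8, 16.6 and 28.5 CPM at 16 weeks in BALB/c. Tapbp in NOR was at 14.7, 18.5 and 18.5 CPM at 3 weeks, 49.1, 39.7 and 31.6 CPM at 8 weeks and 52.6, 90.9 and 70.6 CPM at 16 weeks. NOR was above BALB/c at each age without overlap, and the difference was called at 8 weeks (log2 1.26 ± 0.21) and 16 weeks (1.74 ± 0.20) but not at 3 weeks (0.56 ± 0.23).

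Tapbpl, a relative of tapasin that edits the bound peptides, was nearly level in BALB/c, at 12.97, 12.1 and 11.9 CPM at 3 weeks, 12.3, 12.1 and 11.4 CPM at 8 weeks and 11.97, 12.1 and 12.1 CPM at 16 weeks. It stood at 13.9999, 12.7 and 13.5 CPM at 3 weeks, 22.5, 19.8 and 20.3 CPM at 8 weeks and 20.4, 27.1 and 21.3 CPM at 16 weeks in NOR. NOR was above BALB/c without overlap at 8 and 16 weeks by less than the fold cutoff, with log2 differences of 0.80 ± 0.10 and 0.94 ± 0.10 (adjusted p 7.50e-06 and 3.20e-07, edgeR quasi-likelihood F-test, Benjamini-Hochberg). Without NOR library 1 or NOR library 3 of 16 weeks it was called, at 1.05 and 1.03.

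Erap1, the aminopeptidase that trims peptides to length in the ER, was at 11.3, 10.6 and 8.48 CPM at 3 weeks, 12.3, 9.16 and 10.3 CPM at 8 weeks and 11.6, 11.8 and 15.1 CPM at 16 weeks in BALB/c. Erap1 in NOR was at 8.86, 7.32 and 7.91 CPM at 3 weeks, 20.4, 15.9 and 16.3 CPM at 8 weeks and 19.3, 28.6 and 20.6 CPM at 16 weeks. Here NOR tended to lie below BALB/c at 3 weeks, with overlap, and lay above it at 8 and 16 weeks without overlap. The log2 differences of -0.33 ± 0.18, 0.74 ± 0.16 and 0.84 ± 0.15 at 3, 8 and 16 weeks stayed below the cutoff, and the last was 1.01 and called without BALB/c library 3. The 6 general chaperones of the ER that also assist class I folding, such as Calr and Pdia3, gave 0 calls at 16 weeks by edgeR. Of all tested genes, 14.1% were called higher and 5.22% lower. At an unadjusted p under 0.05 in edgeR, 0 of the chaperones were higher and 1 lower, and DESeq2 called 0 of them. Their median was −0.12, with values from −0.39 for Canx to 0.16 for Pdia4.

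Among the nonclassical heavy chains, which show little polymorphism and often serve as ligands of particular receptors, H2-Q4 and H2-Q6 had the highest means per kb in NOR at 16 weeks, at 35.3 and 32.7 CPM. H2-Q4 was at 6.73, 8.07 and 7.09 CPM at 3 weeks, 10.9, 8.74 and 9.704 CPM at 8 weeks and 9.55, 7.003 and 17.01 CPM at 16 weeks in BALB/c. Against this NOR had 3.57, 10.6 and 6.33 CPM at 3 weeks, 36.01, 21.2 and 21.1 CPM at 8 weeks and 39.6, 89.9 and 60.6 CPM at 16 weeks. The strains overlapped at 3 weeks and were apart at 8 and 16 weeks, with log2 differences of 1.42 ± 0.34 and 2.48 ± 0.32, both called.

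H2-Q6, of the group that encodes Qa-2, was at 0.657, 0.646 and 0.5698 CPM at 3 weeks, 1.34, 1.19 and 1.13 CPM at 8 weeks and 1.57, 2.13 and 3.46 CPM at 16 weeks in BALB/c. NOR stood at 0.929, 4.28 and 4.22 CPM at 3 weeks, 17.5, 11.97 and 9.29 CPM at 8 weeks and 16.5, 46.6 and 33.1 CPM at 16 weeks. The strains did not overlap at any age, and at 3 weeks NOR libraries 2 and 3 were far above library 1. Its difference at 3 weeks, 2.17 ± 0.66 (adjusted p 0.0314, edgeR quasi-likelihood F-test, Benjamini-Hochberg), was 0.57 ± 1.07 without the parotid-rich libraries and then not called. The call was also lost without NOR library 2 (1.68), NOR library 3 (1.95) or BALB/c library 1 (2.22), 2 (2.18) or 3 (2.11). At 8 and 16 weeks the log2 difference was 3.41 ± 0.46 and 3.74 ± 0.39.

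H2-Q2 was at 4.54, 4.76 and 3.99 CPM at 3 weeks, 5.98, 4.195 and 5.59 CPM at 8 weeks and 6.13, 5.25 and 8.31 CPM at 16 weeks in BALB/c. H2-Q2 in NOR was at 1.36, 2.66 and 2.46 CPM at 3 weeks, 13.6, 6.76 and 5.99 CPM at 8 weeks and 12.2, 24.4 and 14.99 CPM at 16 weeks. It was the only one of the 29 tested members whose strains were apart in opposite directions, with NOR below BALB/c at 3 weeks and above it at 8 and 16 weeks. Its log2 differences were -1.10 ± 0.40, 0.74 ± 0.30 and 1.40 ± 0.28, of which the last was called (adjusted p 0.0742, 0.0741 and 0.000389, edgeR quasi-likelihood F-test, Benjamini-Hochberg).

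H2-T10, whose product is seen by gamma delta T cells and holds no peptide, was at 1.75, 1.45 and 1.65 CPM at 3 weeks, 2.202, 1.19 and 2.14 CPM at 8 weeks and 1.62, 1.75 and 2.35 CPM at 16 weeks in BALB/c. NOR LGs stood at 6.71, 8.08 and 5.45 CPM at 3 weeks, 19.2, 13.5 and 12.6 CPM at 8 weeks and 17.3, 26.7 and 19.7 CPM at 16 weeks. NOR was several times above BALB/c at every age, with log2 differences of 2.07 ± 0.26, 3.02 ± 0.24 and 3.47 ± 0.23, all called. At 3 weeks it was 1.96 without the parotid-rich libraries (adjusted p 0.00528, edgeR quasi-likelihood F-test, Benjamini-Hochberg).

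H2-M3, which presents peptides that begin with N-formyl methionine, as those of bacteria and mitochondria do, was at 0.383, 0.403 and 0.1899 CPM at 3 weeks, 1.101, 1.68 and 1.35 CPM at 8 weeks and 1.71, 1.83 and 1.68 CPM at 16 weeks in BALB/c. NOR libraries had it at 1.07, 1.05 and 1.05 CPM at 3 weeks, 6.33, 4.15 and 3.94 CPM at 8 weeks and 7.801, 21.2 and 14.1 CPM at 16 weeks. The strains were apart at each age, with log2 differences of 1.69 ± 0.55, 1.79 ± 0.32 and 3.06 ± 0.29. The first rested on 15, 11 and 6 counts in NOR and 7, 5 and 3 in BALB/c, lost its call when any 1 of the 6 libraries was left out (1.41 to 1.86), and was 1.83 without the parotid-rich libraries, not called.

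H2-M2 held at most 8 counts in every library but those of NOR at 8 and 16 weeks. BALB/c libraries held 1, 4 and 3 counts at 3 weeks, 6, 4 and 7 at 8 weeks and 7, 3 and 8 at 16 weeks. NOR libraries held 1, 0 and 0 counts at 3 weeks, 71, 54 and 35 at 8 weeks and 142, 541 and 138 at 16 weeks. On the CPM scale this was 9.802, 21.2 and 14.7 in NOR against 0.333, 0.228 and 0.384 in BALB/c at 16 weeks, a log2 difference of 5.52 ± 0.37, the largest of the 29 at that age, and 3.04 ± 0.41 at 8 weeks.

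H2-T23 and H2-Q10 went the other way. H2-T23 encodes Qa-1, which shows the leader peptides of other class I chains to the receptor pair CD94 and NKG2A. It was at 37.3, 39.3 and 33.4 CPM at 3 weeks, 41.6, 35.2 and 39.3 CPM at 8 weeks and 40.4, 32.9 and 38.5 CPM at 16 weeks in BALB/c. Levels of NOR LGs were only 4.57, 4.75 and 7.38 CPM at 3 weeks, 9.44, 6.82 and 7.05 CPM at 8 weeks and 8.77, 15.3 and 10.1 CPM at 16 weeks. NOR lay far below BALB/c at every age, with log2 differences of -2.79 ± 0.20, -2.31 ± 0.18 and -1.68 ± 0.17 and adjusted p of 7.64e-09, 1.20e-08 and 1.96e-07 in edgeR's quasi-likelihood F-test (Benjamini-Hochberg). The value at 3 weeks without the parotid-rich libraries was -2.96.

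H2-Q10, a secreted class I chain best known from liver, was at 5.36, 5.33 and 3.99 CPM at 3 weeks, 7.47, 5.804 and 6.601 CPM at 8 weeks and 6.65, 4.19 and 7.88 CPM at 16 weeks in BALB/c. NOR levels were lower, at 0.143, 0.3803 and 0.176 CPM at 3 weeks, 0.352, 0.31002 and 0.353 CPM at 8 weeks and 0.483, 0.863 and 1.06 CPM at 16 weeks. Log2 differences were -4.35 ± 0.39, -4.26 ± 0.31 and -2.99 ± 0.27, called at each age. Without the parotid-rich libraries, NOR at 3 weeks was library 1 alone with 2 counts, under the floor, which allows no fold. For H2-T23 and H2-Q10, as for H2-T10, the difference was already called at 3 weeks, and whether reads of a strain's allele were lost in mapping was not tested.

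H2-Q8 followed them at lower counts, with 28, 34 and 22 counts in BALB/c and 7, 1 and 2 in NOR at 8 weeks (log2 -3.22 ± 0.58), 24, 11 and 47 and 3, 13 and 3 at 16 weeks (-1.93 ± 0.53), and 16, 14 and 8 against 0, 2 and 0 at 3 weeks, for which no fold is given. H2-T24 was at 12.6, 9.13 and 11.9 CPM in BALB/c and 11.3, 13.9 and 11.3 CPM in NOR at 16 weeks. At 8 weeks it was at 14.5, 8.25 and 11.8 CPM in BALB/c and 16.4, 13.8 and 20.6 CPM in NOR, and at 3 weeks at 8.92, 15.5 and 9.88 and 9.29, 8.27 and 7.73 CPM. The strains overlapped in H2-T24 at each age, and it was not called. H2-Q1 had 3, 1 and 4 counts in BALB/c and 18, 40 and 18 in NOR at 16 weeks. H2-T3, the thymus leukemia antigen that binds CD8 alpha homodimers, had 1, 2 and 3 and 13, 42 and 12 counts. At 3 weeks H2-T3 passed the test on 2, 3 and 1 counts in NOR and 0, 0 and 0 in BALB/c, all at or under the floor, which allows no fold, and its call was lost without the parotid-rich libraries. H2-Ke2 and H2-Ke6 were not called at any age and had log2 differences of -0.25 and -0.05 at 16 weeks, and H2-Ke6 was lower in NOR at 8 weeks at the adjusted p alone (-0.30).

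Change with age was read within each strain, where the alleles are the same. In NOR, 20 of the 29 tested members were called higher at 8 than at 3 weeks, beside 8.88% of all genes, and 23 at the adjusted p alone, beside 18.1%. From 8 to 16 weeks, 15 were called higher in NOR, beside 8.88%, and 22 at the adjusted p alone, beside 18.5%. The pair of comparisons shares the NOR libraries of 8 weeks. None was called lower by edgeR at either step, beside 3.27% and 0.778% of all genes, with 0 and 1 lower at an unadjusted p under 0.05 and 0 called lower by DESeq2. Without the parotid-rich libraries, the numbers higher were 21, beside 5.94%, and 12, beside 8.31%. The second step leaned on NOR library 2 of 16 weeks, without which 7 were called. Without any other library of the 2 groups there were 11 to 20.

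For the first step in NOR, log2 changes included 3.25 ± 0.42 for Psmb9, 3.01 ± 0.44 for Psmb8, 2.16 ± 0.42 for Tap1, 1.78 ± 0.44 for Nlrc5, 1.62 ± 0.37 for B2m and 1.54 ± 0.41 for H2-K1. For the second step the same genes changed by 1.48 ± 0.27, 1.54 ± 0.31, 1.42 ± 0.33, 1.61 ± 0.34, 0.80 ± 0.36 and 1.17 ± 0.38, all called but B2m. Without the parotid-rich libraries, where NOR at 3 weeks is the low library 1 alone, the first step was 3.78 for Tap1, 3.72 for Nlrc5, 2.86 for B2m and 3.44 for H2-K1. Without NOR library 2 of 16 weeks, 8 members lost the second call, namely Psme1, H2-K2, H2-K1, H2-Q4, H2-Q6, H2-Q10, H2-T3 and Psmb10, and 7 were called. In the first step, Psme2 and H2-Q1 lost their calls without NOR library 1 of 3 weeks, which left 19, and Erap1, Psme2, H2-Q1 and H2-T10 without NOR library 1 of 8 weeks, which left 17. H2-T23, low in NOR, changed by 0.56 ± 0.22 and 0.59 ± 0.18, and neither was called.

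In BALB/c, 3 members (Psmb9, H2-M3 and B2m) were called higher at 8 than at 3 weeks, beside 4.37% of all genes, and these were also the 3 at the adjusted p alone, beside 13.8%. B2m rose by 2.07 ± 0.37 on the log2 scale, H2-M3 by 2.07 ± 0.49 and Psmb9 by 1.86 ± 0.60. Psmb9 lost its call without BALB/c library 2 or 3 of 3 weeks or library 1 or 2 of 8 weeks, which left 2 called each time, and 2 were also called without the parotid-rich libraries. From 8 to 16 weeks 0 were called higher by edgeR, beside 0.426% of all genes, and 0 at the adjusted p alone, beside 1.29%, with 0 at an unadjusted p under 0.05 and 0 by DESeq2. None was called lower at either step by edgeR, beside 2.58% and 0.015% of all genes, or by DESeq2, and none was lower at an unadjusted p under 0.05.

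Whether the strain difference itself changed with age was tested as an interaction, in which a fixed mapping difference cancels. From 3 to 16 weeks it rose for 16 of the 29 tested members, beside 7.51% of all genes, and for 17 at the adjusted p alone, beside 11.8%. The largest changes after H2-M2 were 2.91 ± 0.71 for Psmb8, 2.73 ± 0.59 for Psmb10, 2.60 ± 0.52 for H2-Q4, 2.50 ± 0.49 for H2-Q2 and 2.47 ± 0.66 for Tap1, on the log2 scale. H2-K1 changed by 1.76 ± 0.58 (adjusted p 0.0326, edgeR quasi-likelihood F-test, Benjamini-Hochberg) and H2-D1 by 1.06 ± 0.26 (adjusted p 0.00777, same test). Among H2-K1, H2-D1 and B2m, edgeR thus called 2 for this rise, while DESeq2 called 1. Psmb9 (2.21 ± 0.83), H2-Q6 (1.57 ± 0.85), H2-M3 (1.38 ± 0.68), Nlrc5 (1.41 ± 0.99) and B2m (0.39 ± 0.51) were not called. H2-T23 was called upward (1.12 ± 0.26), its deficit in NOR being smaller at 16 weeks. With the parotid-rich libraries left out, some changes were larger, at 3.59 for H2-K1, 3.78 for Tap1 and 3.46 for H2-Q4, which were called, and at 1.41 for B2m, 2.94 for Nlrc5, 2.87 for Psmb9 and 3.18 for H2-Q6, which were not.

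The number with a rise from 3 to 16 weeks was 11 without the parotid-rich libraries, beside 4.65% of the genes, where Erap1, Tapbp, Psmb8, Tap2 and Psmb10 lost their calls at log2 changes of 1.03, 1.33, 3.06, 2.01 and 2.63, against 1.17, 1.18, 2.91, 1.78 and 2.73 with all 18 libraries. It was 11 without NOR library 2 of 16 weeks, where Tapbp, H2-K1, Tap2, H2-D1 and H2-T23 did, and 13 without NOR library 1 of 3 weeks, where Tap2, H2-D1 and H2-T23 did. H2-K1 and Tap2 were lost without BALB/c library 1 or 2 of 3 weeks, 14 then being called, and with them H2-D1 without BALB/c library 1 or 2 of 16 weeks, 13 being called. From 3 to 8 weeks, 3 members (Erap1, H2-Q2 and H2-M2) were called, beside 1.29% of all genes, and 4 at the adjusted p alone, beside 2%. The number was 0 without NOR library 2 of 3 weeks, NOR library 1 of 8 weeks or BALB/c library 2 of 8 weeks, 1 without NOR library 1 or 3 or any BALB/c library of 3 weeks, and 2 without BALB/c library 1 or 3 of 8 weeks. From 8 to 16 weeks, 2 (Psme1 and H2-M2) were called, beside 2.04%, and the same 2 at the adjusted p alone, beside 3.44%. The number was 6 without NOR library 1 of 16 weeks, 4 without BALB/c library 3 of 16 weeks, 3 without NOR library 1 of 8 weeks, 1 without NOR library 3 of 16 weeks or BALB/c library 2 of 8 weeks, and 0 without any other. Without the parotid-rich libraries both the 3-to-8-week and the 8-to-16-week number were 0 by edgeR, at log2 changes of 0.94 for Erap1 and 2.52 for H2-Q2 in the first (1.06 and 1.84 with all libraries) and 1.03 for Psme1 and 2.58 for H2-M2 in the second (1.08 and 2.48). No member's strain difference was called downward by edgeR from 3 to 16, 3 to 8 or 8 to 16 weeks, beside 3.15%, 0.927% and 0.807% of all genes, with 0 at an unadjusted p under 0.05 and 0 by DESeq2. These 3 comparisons share libraries.

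Leukocyte markers moved with these genes at 8 and 16 weeks. They did not at 3 weeks, when NOR library 2, which was parotid-rich, had the lowest leukocyte sum of its group and the highest class I sum. The leukocyte sums of that group were close to each other, and the part of parotid tissue was not tested. Ptprc, Coro1a and Laptm5, of which Ptprc was the most abundant and none was at 3 counts or fewer throughout, summed to 9.195, 10.8 and 8.36 CPM at 3 weeks, 15.6, 12.7 and 17.3 CPM at 8 weeks and 19.2, 20.1 and 33.4 CPM at 16 weeks in BALB/c. In NOR they summed to 8.43, 7.42 and 9.49 CPM at 3 weeks, 96.3, 55.5 and 51.8 CPM at 8 weeks and 179.8, 429.7 and 289 CPM at 16 weeks. The strains overlapped at 3 weeks and were apart at 8 and 16 weeks, and NOR library 2 of 16 weeks was the highest, as it was for H2-K1, H2-D1, B2m, Tap1, Psmb8 and Nlrc5. At 16 weeks 3 of 3 were called higher in NOR, beside 14.1% of all tested genes, and at 8 weeks 2 of 3, beside 8.93%. At 3 weeks 0 were called by edgeR, beside 3.54%, with 0 at an unadjusted p under 0.05 and 0 by DESeq2.

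By cell type, T cell markers (5 genes, Cd4 the most abundant) summed to 18.5, 7.94 and 8.87 CPM in NOR at 8 weeks, 41.7, 102 and 65.9 CPM in NOR at 16 weeks and 0.998, 0.913 and 1.25 CPM in BALB/c at 16 weeks. All 5 T cell markers were called higher in NOR at 8 and at 16 weeks, beside 8.93% and 14.1% of all tested genes. At 8 weeks 4 of them (Cd3d, Cd3e, Cd3g and Cd247) had at most 3 counts in every BALB/c library of that age. At 16 weeks 2 did (Cd3d and Cd3e), so the filter set these numbers in part. Of some further immune markers at 16 weeks, 3 of 3 plasma cell, 3 of 3 natural killer cell, 4 of 4 macrophage and 4 of 4 dendritic cell genes were called higher, beside 14.1% of all tested genes. Of these, Tnfrsf17, Klrb1c, Eomes and Xcr1 had at most 5 counts in every BALB/c library and passed the filter through NOR, so these numbers too were set in part by the filter. The 4 epithelial markers summed to 631, 550.4 and 682 CPM in BALB/c and 665, 509 and 581 CPM in NOR at 16 weeks, with overlap. They gave 0 calls by edgeR, beside 14.1% called higher and 5.22% called lower of all tested genes. At an unadjusted p under 0.05 in edgeR, 0 were higher and 1 lower, and DESeq2 called 0. Of 4 muscle markers, 2 were called lower in NOR at 16 weeks by edgeR, beside 5.22% of all tested genes, and 1 by DESeq2. The part of leukocytes in the class I results was not tested.

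Genes around the pathway were read from lists. Of 18 interferon response genes, 15 were called higher in NOR at 8 weeks and 18 at 16 weeks, beside 8.93% and 14.1% of all tested genes. Cxcl9 and Cxcl10 passed the filter through NOR, with 2, 2 and 7 and 0, 1 and 1 counts in BALB/c at 8 weeks. The list had a median log2 difference of 2.38 at 16 weeks beside −0.01 for all tested genes, from Usp18 at 1.04 to Cxcl9 at 7.18. At 3 weeks 0 were called by edgeR, beside 3.54% called higher and 1.71% called lower of all tested genes. There were 0 at an unadjusted p under 0.05 in either direction in edgeR and 0 by DESeq2. Of the interferon genes themselves, 0 of 5 passed the filter. Ifng had 1, 4 and 2 counts in NOR at 8 weeks and 3, 20 and 11 at 16 weeks and 0 in every other library, while Ifnb1, Ifna4, Il28a and Il28b were at or below 3 counts in every library.

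Receptors that read class I, or that belong to families of such receptors, were listed as well. Of the 9 genes 7 passed the filter, and 7 were called higher in NOR at 16 weeks, beside 14.1% of all tested genes. As 4 of them had at most 3 counts in every BALB/c library of that age and passed the filter through NOR groups, this number is partly set by the filter. The receptors had a median log2 difference of 3.53, or 2.82 with these 4 genes set at their fold over a floor of 3 counts per library. Cd8a, a chain of the class I co-receptor of T cells, was at 4.42, 7.73 and 7.12 CPM in NOR at 16 weeks and had 1, 0 and 2 counts in BALB/c. Klra7, an inhibitory Ly49 receptor, rose at least 7.07-fold over the floor in NOR at 16 weeks against 0 counts in each BALB/c library, and the smallest difference was that of Lilrb4 at 1.02. Klra4 had no count in any library. Of cytotoxic effector genes, the 5 that passed the filter were called higher at 16 weeks, beside 14.1% of all tested genes. The filter set this number in part as well. Their median was 3.99, or 3.75 with the 2 low genes at the floor. Gzmk had 0, 0 and 2 counts in BALB/c and 15, 61 and 13 in NOR.

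A list for class II, which presents outside antigens to CD4 T cells, held 9 H2 genes and Cd74, Ciita and Ctss, and gave 11 higher and 1 lower of 12 at 16 weeks, beside 14.1% and 5.22% of all tested genes, with a median of 3.72. H2-Oa had at most 3 counts in every BALB/c library and passed the filter through NOR. The largest difference was that of H2-Ea-ps at −7.24 and the smallest that of Ctss at 2.80. Of 9 class I-like genes, which have the class I fold but other tasks, 6 were tested. At 16 weeks 3 of the 6 were called higher, beside 14.1% of all tested genes, and the median of the 6 was 1.17. Cd1d1, which presents lipids, had the largest difference at 2.00 and Mr1, which presents microbial metabolites, the smallest at −0.08.

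As many members moved together, their promoters were read from RefSeq (GRCm38.p6, the build named mm10), in windows from 250 bases before to 50 bases after a gene's start. Of the 44 members 32 matched, and of the 29 tested 20. No window was read for H2-Ke2, H2-K2, Tap2, H2-Q1, H2-Q8, H2-Q9, H2-T24, H2-T9, H2-Bl, H2-T10, Tapbpl and Nlrc5. A core of the interferon-stimulated response element, spelled GAAANNGAAA and searched on both strands, was found in 3.44% of all 32851 promoters and in 5 of the 32 (Erap1, Psme1, H2-T23, H2-T22 and B2m). The interferon gamma activated site TTCNNNGAA was in 8.3% of all and in 3 of the 32 (Psmb8, H2-M11 and H2-M3). The CCAAT box, part of the promoter module that Nlrc5 works through, was in 37.4% of all and in 24 of the 32. The kappa B motif GGGGATTCC was in 0.25% of all and in 4 of the 32 (H2-K1, H2-D1, H2-Q6 and H2-Q7). A match describes letters and is not a binding site, and related heavy chain promoters share ancestry.

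The stretches before the starts of H2-K1, H2-D1 and H2-Q6 are shown to let the shared kappa B and CCAAT letters be compared, that of B2m for its response element, that of Psmb8 for its activated site, and the whole gap between the starts of Psmb9 and Tap1 because 1 short sequence lies before both genes. All are upstream of the annotated genes, 200 bases each except 225 for the gap, written 5′ to 3′ on the strand of the gene, and for the gap on the strand of Tap1. Capitals mark matches to the 4 motifs on either strand (ATTGG is CCAAT read on the other strand), and no match overlaps another. The stretch of H2-K1 ends at 1 of its annotated starts. A further CCAAT match of H2-K1, at position 8 from that start, is therefore not shown. From another annotated start of H2-K1 that match lies at -6. H2-K1 is chr17:34000348-34000547 (minus strand), H2-D1 chr17:35262894-35263093 (plus), H2-Q6 chr17:35424650-35424849 (plus), B2m chr2:122147487-122147686 (plus), Psmb8 chr17:34197995-34198194 (plus) and the gap chr17:34187331-34187555 (plus).
H2-K1: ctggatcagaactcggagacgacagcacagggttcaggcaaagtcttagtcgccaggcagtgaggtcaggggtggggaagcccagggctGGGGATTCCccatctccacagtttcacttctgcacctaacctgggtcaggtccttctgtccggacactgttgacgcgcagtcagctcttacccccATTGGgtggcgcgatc
H2-D1: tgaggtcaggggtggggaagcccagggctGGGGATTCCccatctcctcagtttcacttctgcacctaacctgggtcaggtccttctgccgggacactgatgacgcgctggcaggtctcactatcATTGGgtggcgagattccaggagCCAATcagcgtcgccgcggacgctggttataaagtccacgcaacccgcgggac
H2-Q6: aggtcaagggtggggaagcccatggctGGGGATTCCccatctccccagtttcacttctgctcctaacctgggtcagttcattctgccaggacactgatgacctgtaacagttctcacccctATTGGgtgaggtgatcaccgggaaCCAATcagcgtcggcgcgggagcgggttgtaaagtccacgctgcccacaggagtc
B2m: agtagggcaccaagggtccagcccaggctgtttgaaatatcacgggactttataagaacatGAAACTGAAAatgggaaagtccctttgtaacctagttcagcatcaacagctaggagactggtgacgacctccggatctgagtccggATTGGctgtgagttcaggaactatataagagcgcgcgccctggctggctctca
Psmb8: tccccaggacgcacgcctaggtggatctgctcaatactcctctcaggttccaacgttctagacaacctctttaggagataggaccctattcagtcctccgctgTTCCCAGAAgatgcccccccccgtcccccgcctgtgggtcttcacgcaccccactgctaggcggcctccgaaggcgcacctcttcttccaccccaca
Tap1-Psmb9: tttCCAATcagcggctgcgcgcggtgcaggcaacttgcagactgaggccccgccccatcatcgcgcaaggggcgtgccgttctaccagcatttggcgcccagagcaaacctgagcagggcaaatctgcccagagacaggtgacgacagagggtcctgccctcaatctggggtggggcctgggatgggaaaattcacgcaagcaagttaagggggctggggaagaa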

How the data were processed

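Libraries of exorbital lacrimal gland RNA (TruSeq stranded mRNA, single reads of 50 bases, Illumina HiSeq) were mapped by the authors to mm10 with HISAT2, whose version was not given in the sources used here, and the deposited counts per gene came from featureCounts 1.6.2, over the exons of UCSC genes, with no strand option and without reads of several places or several genes. The gene Length column of that table was used for values per kb. All 18 libraries were fitted in edgeR 4.0.16 (R 4.3.3, limma 3.58.1) with a mean for each of the 6 groups, TMM normalization, filterByExpr (minimum count 10, minimum total 15) and the quasi-likelihood F-test. The fit's shared dispersion of 0.019071 equals a coefficient of biological variation of 13.81%. Calls needed a Benjamini-Hochberg adjusted p of at most 0.05, over all tested genes, and a log2 fold change of at least 1 in size. Strains were compared at each age, ages within each strain, and the strain difference between ages as interactions.

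Subunit ratios, exact permutation tests, read sharing and promoter motifs used Python 3.11.15 (numpy 2.4.6, scipy 1.17.1), and figures matplotlib 3.10.9. Named genes were those of the classical chains, immunoproteasome, PA28, peptide loading and transactivator lists, and members with a group mean of at least 5 CPM, the rest being given by range or counts. Genes named beside these, such as those that lost or gained a call, were chosen after their values were seen. The members and lists were chosen with earlier results of these data known. The steps were tested on simulated data.

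Alternatives were DESeq2 1.42.0, its size factors, TMM after dropping the 20 genes with most reads, testing unfiltered genes, a mean of at least 1 CPM, fits of the compared groups alone, the replicate number as a block, no fold cutoff, glmTreat, leaving out each library, and leaving out the parotid-rich libraries. For members called lower they were chosen after seeing the data.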

Additional observations from a re-analysis of the deposited data

Results flagged for a closer look

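A test of the interaction between strain and age in edgeR picked out the genes below, as their log2 difference between NOR and BALB/c was not the same at 2 ages. Each value is the change of that difference, and all were upward. The 3 age comparisons share libraries.

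From 3 to 16 weeks the difference rose by 1.76 for H2-K1, 1.06 for H2-D1, 2.09 for H2-K2, 2.50 for H2-Q2, 2.60 for H2-Q4, 1.40 for H2-T10 and 1.12 for H2-T23. Among the processing genes it rose by 2.91 for Psmb8, 2.73 for Psmb10, 1.86 for Psme1, 1.45 for Psme2, 2.47 for Tap1, 1.78 for Tap2, 1.18 for Tapbp and 1.17 for Erap1. From 3 to 8 weeks it rose by 1.84 for H2-Q2 and 1.06 for Erap1, and from 8 to 16 weeks by 1.08 for Psme1.

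The values of H2-M2 were 7.67 from 3 to 16 weeks, 5.18 from 3 to 8 weeks and 2.48 from 8 to 16 weeks. Those that start at 3 weeks are fitted values that rest on 1 count in the NOR libraries of that age and are no bound.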

How the results depend on the processing

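Fold changes of the 29 tested members, for the strains at each age and for their ratio at 16 over that at 3 weeks, were recomputed 1780 times over the alternatives. Of these, 1685 kept direction and side of the threshold, 49 kept direction but were no longer past it, 29 came past it, and 17 changed sign, none of them called with or without the alternative. At 3 weeks without the parotid-rich libraries, log2 values turned to -1.01 for H2-K1, -0.205 for H2-K2, -0.370 for Tap1, -0.0859 for B2m, 0.0628 for Psmb10 and, fitted at few counts, -0.0482 for H2-Q1. The other 11 arose with 1 library left out, where H2-Q4 ran from -0.679 to 0.280 and Psmb10 from -0.246 to 0.105 at 3 weeks, H2-Ke6 from -0.119 to 0.0553 at 16 weeks, and the ratio of 16 over 3 weeks from -0.00212 to 0.742 for B2m and -0.232 to 0.0755 for H2-Ke2. Turned values were those without NOR replicate 1 of 3 weeks for H2-Q4 and B2m, BALB/c replicate 1 or 2 for Psmb10, NOR replicate 1 or 3 or BALB/c replicate 1 for H2-Ke6, and NOR replicate 1 or BALB/c replicate 2 of 3 weeks or replicate 3 of either strain at 16 weeks for H2-Ke2. The cause was not tested. The counts of members called moved by more than 1.5 times in these cases, and the cause was not tested. With only the compared groups fitted, 5 members were called higher in BALB/c at 8 than 3 weeks, and the strain difference rose for 7 from 3 to 8 weeks and 0 from 8 to 16 weeks. With glmTreat, a stricter test by construction, 1 was called higher in NOR at 3 weeks and 11 at 8 weeks, 10 in NOR from 3 to 8 weeks, 1 in NOR from 8 to 16 weeks and 1 in BALB/c from 3 to 8 weeks, and the strain difference rose for 4 from 3 to 16 weeks, 0 from 3 to 8 weeks and 0 from 8 to 16 weeks. Without the parotid-rich libraries, which leaves fewer libraries, 1 was called higher in NOR at 3 weeks, and the strain difference rose for 0 from 3 to 8 and 0 from 8 to 16 weeks.

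Correlations within replicate numbers ran from −0.47 to 0.51, and 22 of 45 exceeded 0.1. As libraries of unlike numbers were not compared, these values cannot tell whether the numbers pair the libraries. With the replicate block, 1 member was called for a rise from 8 to 16 weeks.

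Leaving out 1 library at a time gave 1 to 8 members higher in NOR at 3 weeks, 18 to 20 at 8 weeks and 21 to 23 at 16 weeks, and 2 to 3, 3 to 3 and 2 to 3 lower. In NOR 17 to 22 rose from 3 to 8 weeks and 7 to 20 from 8 to 16 weeks, and in BALB/c 2 to 4 and 0 to 0. The strain difference rose for 11 to 20 from 3 to 16 weeks, 0 to 3 from 3 to 8 weeks and 0 to 6 from 8 to 16 weeks. The log2 strain difference of Psmb10/Psmb7 at 3 weeks ran from −0.17 to 0.21, and turned to −0.17 without BALB/c replicate 3. At 8 weeks it ran from 1.40 to 1.89 and at 16 weeks from 2.45 to 3.49.

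Groups of 3 libraries limit every test, and the lowest depth, in NOR at 3 weeks, sets the highest floor. Age and pooling changed together, and mapping to differing haplotypes was not tested.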
